A study of Homo sapiens with 9 samples.

Results

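DUSP2, DUSP4, DUSP5, DUSP6, SPRY1, SPRY2, SPRY4, SPRED1, SPRED2 and ETV5 are 10 genes of the ERK feedback system, taken by gene symbol from the 26830 gene rows of each library. RNA-seq libraries of poly(A) RNA were made from cells labelled NB4, a human acute promyelocytic leukaemia line that the labels call acute monocytic, after 48 h with FB23-2, with FB23 or with DMSO, the solvent control. Each group had 3 libraries, and the series names FTO, an RNA demethylase, as the protein that the compounds inhibit. The sources used here give neither the doses nor whether the 3 libraries of a group came from separate cultures, so p-values measure the spread between libraries, which may be technical. All groups share the same cell line and time.

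ERK is the last kinase of a cascade that runs from receptors through RAS, RAF and MEK, and it drives division and differentiation of blood cells. Its own transcriptional output includes its brakes. DUSP proteins of this class are phosphatases that remove phosphate from ERK and related kinases, Sprouty proteins act between receptors and RAF, and SPRED proteins bring the RAS inactivator neurofibromin to the membrane. ETV5 is an ETS family transcription factor whose gene, like several of the brakes, is repressed by CIC until ERK signalling relieves that repression. Transcript levels of these genes are widely read as a sign of ERK output, but no kinase activity was measured here.

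Library totals were between 12360291 and 38410750 expected counts, and both the lowest and the highest total were FB23 libraries. FTO fell with FB23-2 by 0.35 ± 0.06 on the log2 scale against DMSO (edgeR quasi-likelihood test, Benjamini-Hochberg adjusted p = 7.33e-05), and with FB23 the change was -0.10 ± 0.06 (adjusted p = 0.253). By TPM the FTO groups overlapped, with 12.8, 11.8 and 13.07 TPM in the FB23-2 libraries, 13.08, 13.04 and 11.95 TPM in the FB23 libraries and 13.45, 14.08 and 12.8 TPM in the DMSO libraries, so the size of that fall depended on the scaling. The granule genes that define promyelocytes were at or near 0 in every group, with MPO and CTSG at 0 in all libraries and the 5 markers summing to 1.05 to 1.77 TPM with FB23-2, 0.23 to 0.78 TPM with FB23 and 0.76 to 1.56 TPM with DMSO. The 11 erythroid markers, led by the globin HBG2, summed to 4107 to 4686 TPM with FB23-2, 31639 to 34036 TPM with FB23 and 27682 to 29316 TPM with DMSO. The 8 monocyte and macrophage markers summed to 64.7 to 71.1 TPM with FB23-2, 10.4 to 12.3 TPM with FB23 and 13.99 to 14.95 TPM with DMSO. The 6 epithelial and fibroblast markers summed to 2302 to 2443 TPM with FB23-2, 663 to 681 TPM with FB23 and 588 to 591 TPM with DMSO. The highest of them was the keratin KRT8 with FB23-2 and the keratin KRT18 with FB23 and with DMSO. The 6 lymphoid markers reached 30.6 to 35.4 TPM with FB23-2, 4.15 to 5.17 TPM with FB23 and 4.87 to 6.86 TPM with DMSO. The 5 megakaryocyte markers reached 4.76 to 5.76 TPM with FB23-2, 1.69 to 1.85 TPM with FB23 and 1.33 to 2.34 TPM with DMSO, with GP9, PF4 and PPBP at 0 throughout. The libraries therefore do not carry the granule transcripts expected of the labelled line. These marker levels moved with FB23-2 together with the genes described here, and their part in those results was not tested. In bulk RNA, fewer cells of one kind and less RNA per cell cannot be told apart.

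Both compounds were compared with DMSO, and FB23-2 with FB23, to see which feedback genes respond to either compound. DUSP2 and DUSP6 had too few counts to test, and the other 8 genes were tested in 1 edgeR fit over 13365 genes. With FB23-2, DUSP5, SPRY4, ETV5, DUSP4 and SPRED2 rose and SPRY1, SPRED1 and SPRY2 fell against DMSO. Among all tested genes 41.3% were called higher and 41.3% lower at an adjusted p under 0.05, so having all 8 genes called is not in itself a result about them. What sets them apart from each other is size, from a 28.5-fold rise of DUSP5 to a 1.09-fold rise of SPRED2. The median log2 fold change of the 8 genes was 0.46, against 0.01 over all tested genes, and the median size regardless of direction was 0.99, against 0.73. Tested on log2 TPM in place of scaled counts, the split was 5 higher and 1 lower, because the falls of SPRY2 and SPRED1 no longer passed. On log2(TPM + 0.5), 6645 of all 13324 genes in that fit were called higher and 4250 lower.

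**Figure D1:**
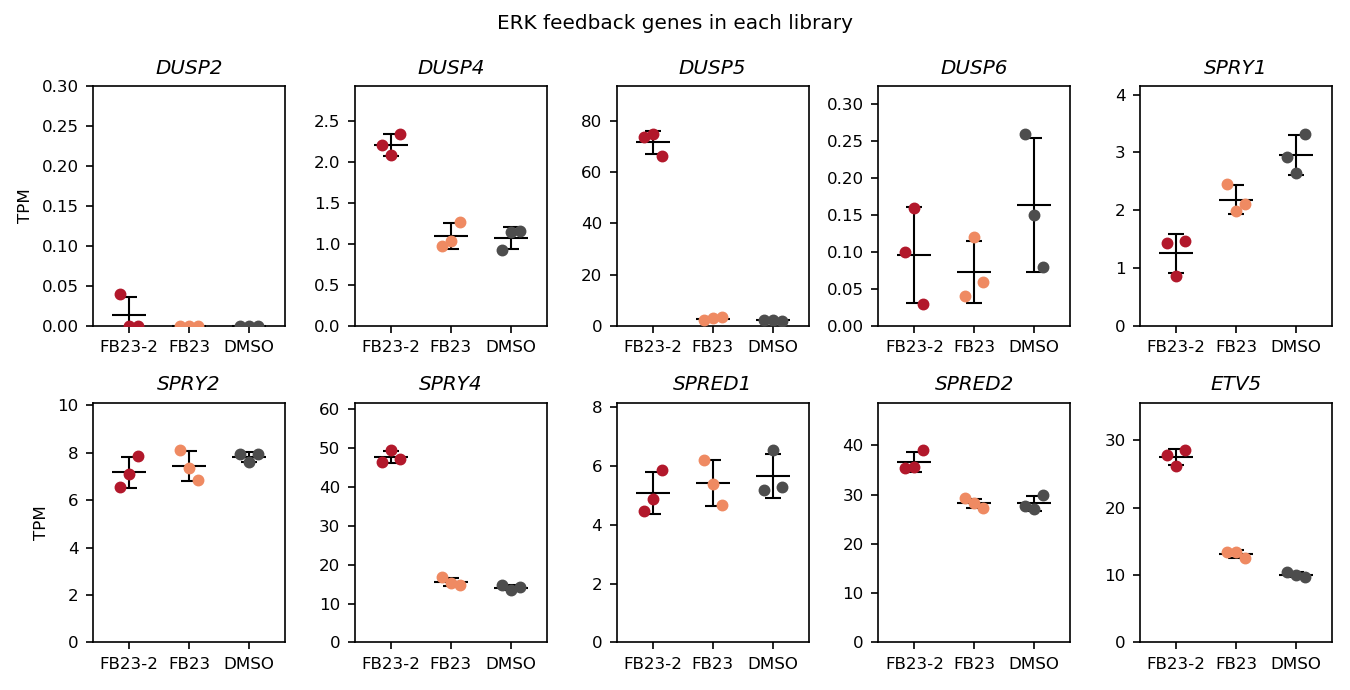
TPM of each of the 10 genes in each library, with the mean (long line) and SD (bars) of the 3 libraries of a group. With FB23-2, DUSP5 lies between 66.3 and 74.8 TPM and SPRY4 between 46.5 and 49.4 TPM, far above every FB23 and DMSO library, and SPRY1 lies below them.

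Some of the genes have a promoter window in the RefSeq table for GRCh38.p14, from 250 bases before to 50 bases after an annotated start. The 3 windows shown are those of SPRY4 and SPRY1, the Sprouty genes that moved in opposite directions with FB23-2, and of SPRED2. SPRY1 and SPRED2 have 2 windows each, and the one shown was chosen because it holds a motif match. The SPRY4 window is chr5:142324198-142324497 on the minus strand, the SPRED2 window chr2:65366729-65367028 on the minus strand and the SPRY1 window chr4:123398136-123398435 on the plus strand. Capitals mark matches, on either strand, to the motifs searched.
SPRY4: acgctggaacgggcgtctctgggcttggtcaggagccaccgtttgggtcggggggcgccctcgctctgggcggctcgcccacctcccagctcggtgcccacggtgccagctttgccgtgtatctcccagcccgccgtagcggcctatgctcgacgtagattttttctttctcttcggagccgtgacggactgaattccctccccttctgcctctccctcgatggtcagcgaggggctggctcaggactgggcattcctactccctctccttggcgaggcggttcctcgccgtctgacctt
SPRED2: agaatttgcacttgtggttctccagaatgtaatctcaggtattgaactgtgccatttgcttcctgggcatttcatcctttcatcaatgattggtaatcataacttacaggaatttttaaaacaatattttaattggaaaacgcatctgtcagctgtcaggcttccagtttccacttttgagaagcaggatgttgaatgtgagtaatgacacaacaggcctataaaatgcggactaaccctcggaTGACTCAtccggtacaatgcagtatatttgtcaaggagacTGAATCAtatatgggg
SPRY1: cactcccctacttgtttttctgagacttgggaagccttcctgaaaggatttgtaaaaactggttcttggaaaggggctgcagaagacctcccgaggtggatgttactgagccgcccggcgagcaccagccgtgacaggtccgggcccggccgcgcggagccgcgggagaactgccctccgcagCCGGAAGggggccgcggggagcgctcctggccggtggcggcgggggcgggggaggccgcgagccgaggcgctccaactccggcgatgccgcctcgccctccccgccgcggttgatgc

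The motifs searched on both strands were 2 forms of the CIC site (TGAATGAA or TGAATGGA), an ETS core (CCGGAAG), the AP-1 site (TGANTCA) and the cAMP response element (TGACGTCA). Other forms of the CIC site were not searched. No motif contains the letters of another. Of 35116 promoter windows in the table, 2.63% hold either searched form of the CIC site, 10.3% the ETS core, 7.71% the AP-1 site and 1.85% the cAMP response element. A total of 7 of the 10 genes had a window that was searched, with 11 windows between them. DUSP5 and ETV5 had none, and windows on chromosome 8, where DUSP4 lies, were left out of this search. The SPRED2 window above has AP-1 matches at positions -6 and 35 relative to the start, and the SPRY1 window has an ETS core at position -67. The other 9 windows hold no match, among them the SPRY4 window and the windows over the GENCODE gene starts of SPRY1 (chr4:123396545-123396844) and SPRED2 (chr2:65432550-65432849). The SPRY4 window does not cover the GENCODE start of that gene at 142326455, so the sequence there was not searched. The same holds for the GENCODE starts of DUSP6 (89353271), SPRED1 (38252326) and SPRY2 (80340951), which lie outside the windows of those genes. The window of SPRY4-AS1, a transcript on the other strand inside the SPRY4 locus at chr5:142325043-142325342, holds the CIC letters TGAATGGA at position 3. The windows of the other neighbouring transcripts looked at, 2 of DUSP5-DT and 1 of ETV5-AS1, hold no match. A match describes letters only, and no binding was measured.

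Among the phosphatases, DUSP5, which acts on ERK in the nucleus and is itself an ERK-induced gene, changed most. DUSP5 (chromosome 10, 110497838 to 110511544, plus strand, GRCh38) had 73.5, 74.8 and 66.3 TPM in the FB23-2 libraries, 2.14, 3.07 and 3.35 TPM in the FB23 libraries and 2.14, 2.26 and 1.95 TPM in the DMSO libraries. All FB23-2 libraries lay far above the other 6, while 1 FB23 library fell within the DMSO range. These values rest on 2684, 2004 and 1432 counts with FB23-2, on 41, 150 and 206 counts with FB23, and on 58, 65 and 51 counts with DMSO. The log2 fold change of FB23-2 against DMSO was 4.83 ± 0.12 (adjusted p = 3.03e-16), a 28.5-fold difference with a 95% interval of 23.84 to 33.97. It ranked 119 from the top of the 13365 tested genes. The related pseudogene DUSP5P1, which could share reads with it, had 29 counts over the FB23-2 libraries, 43 over the FB23 libraries and 39 over the DMSO libraries, while DUSP5 itself had 6120 with FB23-2, 397 with FB23 and 174 with DMSO.

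DUSP4, another nuclear phosphatase of ERK and related kinases, was low in every library and rose less. It had 2.20, 2.08 and 2.34 TPM with FB23-2, 0.98, 1.04 and 1.27 TPM with FB23 and 0.92, 1.14 and 1.16 TPM with DMSO. The FB23-2 libraries did not overlap the others, and the FB23 and DMSO libraries overlapped. The log2 fold change against DMSO was 0.79 ± 0.15 (edgeR adjusted p = 8.49e-05), or 1.73-fold.

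DUSP6, the cytoplasmic ERK phosphatase, and DUSP2, a nuclear one found mainly in activated blood cells, were barely detected. DUSP6 had 5, 6 and 1 counts in the FB23-2 libraries, 1, 8 and 5 in the FB23 libraries and 10, 6 and 3 in the DMSO libraries. The groups overlapped. Summed over libraries and scaled to their totals, FB23-2 had 0.571 times the DMSO level of DUSP6 (95% counting interval 0.253 to 1.24) and FB23 had 0.471 times (0.219 to 0.992), intervals that cover counting error only. DUSP2 had 1 count in 1 FB23-2 library and 0 in the other 8 libraries. At a floor of 3 counts over a group, a count of 0 allows up to 0.0365 CPM over the FB23 libraries and 0.0571 CPM over the DMSO libraries (the exact 95% Poisson limits are 0.0449 and 0.0702 CPM). The cells thus had measurable DUSP5 and DUSP4 transcripts, while those of DUSP6 were present in every library but too few to test, with or without a compound.

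The 4 phosphatase genes together held 73.8 ± 4.52 TPM with FB23-2, 4.02 ± 0.781 TPM with FB23 and 3.35 ± 0.182 TPM with DMSO (mean ± SD, n = 3 each). DUSP5 made up 96.9% ± 0.277 of that sum with FB23-2, 70.6% ± 2.56 with FB23 and 63.1% ± 1.74 with DMSO (SD, n = 3 each). Set among 11 DUSP genes of the MAP kinase phosphatase class and its relatives by TPM, DUSP5 ranked 3 with FB23-2, after DUSP1 at 91.0 ± 0.927 TPM and DUSP14 at 74.8 ± 3.14 TPM. With FB23 and with DMSO it ranked 7 of the 11.

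**Figure D2:**
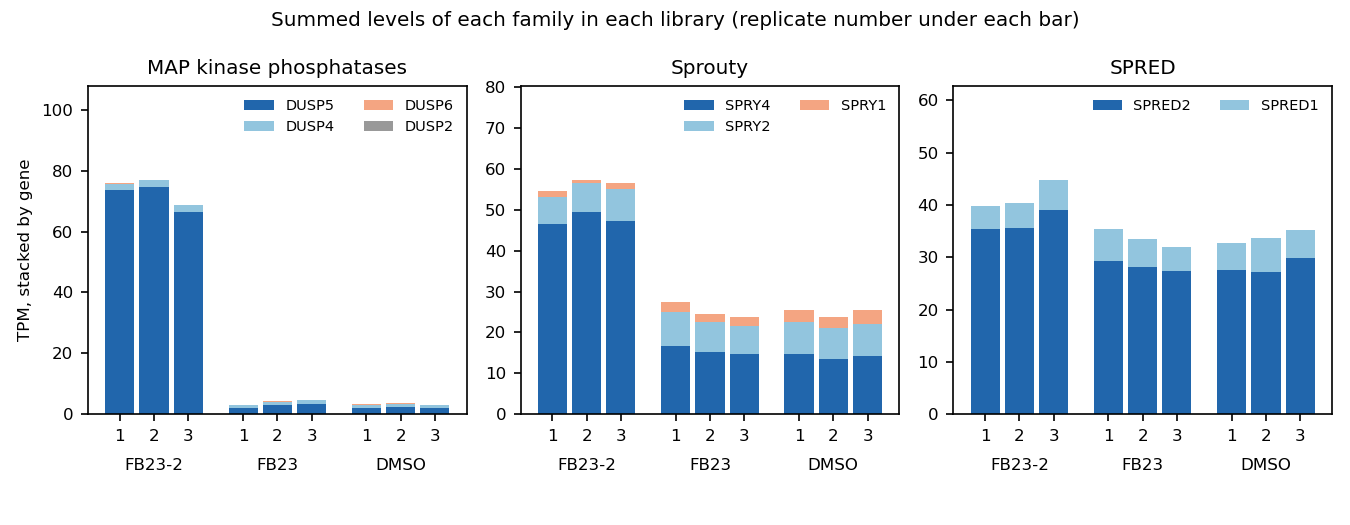
Stacked bars of summed TPM for the phosphatase, Sprouty and SPRED genes in each library, with replicate numbers under the bars and a separate axis for each family. With FB23-2 nearly all of the phosphatase sum is DUSP5 and most of the Sprouty sum is SPRY4, whereas SPRED2 leads the SPRED sum in every library.

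The Sprouty genes moved in opposite directions. SPRY4, an inhibitor of signalling from growth factor receptors to RAS and RAF, had 46.5, 49.4 and 47.2 TPM with FB23-2, 16.8, 15.2 and 14.8 TPM with FB23 and 14.7, 13.5 and 14.2 TPM with DMSO. The FB23-2 libraries lay within a narrow band well above the others, with no overlap, and by TPM the FB23 libraries began just above the highest DMSO library. On CPM scaled with TMM factors, described below for SPRY2, FB23 and DMSO overlapped. The lowest FB23 library had 51.35 CPM and the highest DMSO library 51.39 CPM. SPRY4 rose 2.85-fold against DMSO, with a log2 fold change of 1.51 ± 0.06 (edgeR adjusted p = 6.98e-14). The gene lies on chromosome 5 from 142310427 to 142326455 on the minus strand. SPRY4-IT1, a noncoding transcript named for a SPRY4 intron with a row of its own, had 141 counts over the FB23-2 libraries, 38 over the FB23 libraries and 16 over the DMSO libraries. The library kit keeps strand, but whether counting used it is not given in the sources used here, so reads of SPRY4 and of its antisense partner SPRY4-AS1 cannot be told apart. The same holds for ETV5 and ETV5-AS1.

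SPRY1, which like SPRY4 restrains receptor signalling, went the other way. It had 1.43, 0.86 and 1.47 TPM with FB23-2, 2.46, 1.99 and 2.11 TPM with FB23 and 2.92, 2.64 and 3.32 TPM with DMSO. The 3 groups did not overlap, with FB23-2 lowest, FB23 between and DMSO highest. The log2 fold change of FB23-2 against DMSO was -1.47 ± 0.20 (edgeR adjusted p = 2.26e-06), which left 0.360 times the DMSO level. SPRY1 ranked 1088 from the bottom of the 13365 genes.

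SPRY2, the other Sprouty gene measured, had 6.58, 7.10 and 7.87 TPM with FB23-2, 8.10, 7.38 and 6.85 TPM with FB23 and 7.95, 7.60 and 7.94 TPM with DMSO, and the groups overlapped on this scale. On CPM values scaled with TMM factors, which adjust for RNA composition, it had 8.67 ± 0.466 with FB23-2 and 11.2 ± 0.380 with DMSO (mean ± SD, n = 3 each) and did not overlap. The log2 fold change was -0.38 ± 0.10 (edgeR adjusted p = 0.00146), but the call was lost with upper-quartile scaling (adjusted p = 0.0545) and on log2 TPM (adjusted p = 0.216 with a pseudocount of 0.5). Whether SPRY2 fell therefore depended on the scaling.

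The summed TPM of the 3 Sprouty genes was 56.1 ± 1.45 with FB23-2, 25.2 ± 1.90 with FB23 and 24.9 ± 1.02 with DMSO (mean ± SD, n = 3 each). SPRY4 accounted for 84.96% ± 1.354 of it with FB23-2, 61.8% ± 0.420 with FB23 and 56.6% ± 0.864 with DMSO. The higher sum with FB23-2 was thus SPRY4 alone, since neither other gene had a higher mean TPM there.

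The SPRED genes, which inhibit RAS through neurofibromin, changed little. SPRED2 had 35.4, 35.6 and 39.0 TPM with FB23-2, 29.2, 28.2 and 27.3 TPM with FB23 and 27.6, 27.1 and 29.9 TPM with DMSO, so that FB23-2 lay above both other groups without overlap. In the edgeR fit the difference from DMSO was 0.13 ± 0.05 on the log2 scale (adjusted p = 0.0213), or 1.09-fold. On log2(TPM + 0.5) it was 0.37. The edgeR call was lost with no filter on low counts (adjusted p = 0.121), without DMSO replicate 1 (0.0798), without DMSO replicate 2 (0.162) and without FB23-2 replicate 3 (0.0611).

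SPRED1 had 4.47, 4.88 and 5.85 TPM with FB23-2, 6.20, 5.37 and 4.66 TPM with FB23 and 5.18, 6.52 and 5.27 TPM with DMSO, with overlap between all groups. Scaled with TMM factors it fell with FB23-2 by 0.42 ± 0.10 on the log2 scale against DMSO (edgeR adjusted p = 0.00109). On log2(TPM + 0.5) the fall was not called (-0.15, adjusted p = 0.316). SPRED2 made up 87.9% ± 0.923 of the sum of SPRED1 and SPRED2 with FB23-2, 84.0% ± 1.46 with FB23 and 83.3% ± 2.34 with DMSO (SD, n = 3 each).

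ETV5, the ETS factor of the group, had 27.8, 26.2 and 28.5 TPM with FB23-2, 13.5, 13.4 and 12.5 TPM with FB23 and 10.5, 10.1 and 9.72 TPM with DMSO. The 3 groups did not overlap, and FB23 lay between the others. ETV5 rose 2.29-fold with FB23-2 against DMSO, a log2 fold change of 1.197 ± 0.059 (edgeR adjusted p = 2.38e-12). The gene lies on chromosome 3 from 186046308 to 186110318 on the minus strand.

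Of the other genes, DUSP2 lies on chromosome 2 from 96143166 to 96145440 (minus strand), DUSP4 on chromosome 8 from 29333064 to 29350668 (minus strand) and DUSP6 on chromosome 12 from 89347232 to 89353271 (minus strand). The rest lie on chromosome 4 from 123396795 to 123403760 (SPRY1, plus strand), on chromosome 13 from 80335976 to 80340951 (SPRY2, minus strand), on chromosome 15 from 38252326 to 38357249 (SPRED1, plus strand) and on chromosome 2 from 65310851 to 65432637 (SPRED2, minus strand). All gene coordinates are from GENCODE 29 on GRCh38.

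Ordered by TPM, which is a level per length, the DMSO libraries ran from SPRED2 through SPRY4, ETV5, SPRY2, SPRED1, SPRY1, DUSP5, DUSP4 and DUSP6 to DUSP2, and no neighbouring ranges overlapped. With FB23 only DUSP5 and SPRY1 changed places, and their ranges overlapped. With FB23-2 the order ran from DUSP5 through SPRY4, SPRED2, ETV5, SPRY2, SPRED1, DUSP4 and SPRY1 to DUSP6 and DUSP2, and of the neighbours only DUSP6 and DUSP2 overlapped. DUSP5 therefore stood at rank 1 of the 10 with FB23-2 and at rank 7 with DMSO.

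FB23 had fewer calls among these genes. Of the 8 tested, 2 rose against DMSO and 0 fell by edgeR, while over all genes 12.3% were called higher and 11.2% lower. At an unadjusted p under 0.05, 1 of the 8 (SPRY1) was lower, and limma-voom called 1 lower and the DESeq2 Wald test 0. ETV5 rose 1.29-fold with FB23 (log2 fold change 0.36 ± 0.06, edgeR adjusted p = 0.000437), with all 3 FB23 libraries above all DMSO libraries. DUSP5 rose by 0.51 ± 0.17 (adjusted p = 0.0384), with 1 of 3 FB23 libraries inside the DMSO range. That DUSP5 call did not hold with limma-voom, on log2 TPM, in a fit of the 6 libraries compared (adjusted p = 0.0702), or without any 1 of DMSO replicates 1, 2 and 3 or FB23 replicates 2 and 3, where adjusted p was between 0.0764 and 0.182.

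SPRY1 did not pass the test with FB23 (-0.47 ± 0.18, edgeR adjusted p = 0.0654), although its FB23 and DMSO libraries did not overlap. It passed with limma-voom (adjusted p = 0.0411), in the fit of 6 libraries (0.0431) and without FB23-2 replicate 2 (0.0466). SPRY4 had a log2 fold change of 0.12 ± 0.06 (adjusted p = 0.157) with a 95% interval of -0.0043 to 0.25. DUSP4 (0.05 ± 0.15, adjusted p = 0.842), SPRY2 (-0.10 ± 0.09, 0.451), SPRED1 (-0.11 ± 0.10, 0.486) and SPRED2 (-0.01 ± 0.05, 0.863) were not called. The median log2 fold change of the 8 genes was 0.02, against 0.00 over all genes.

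**Figure D3:**
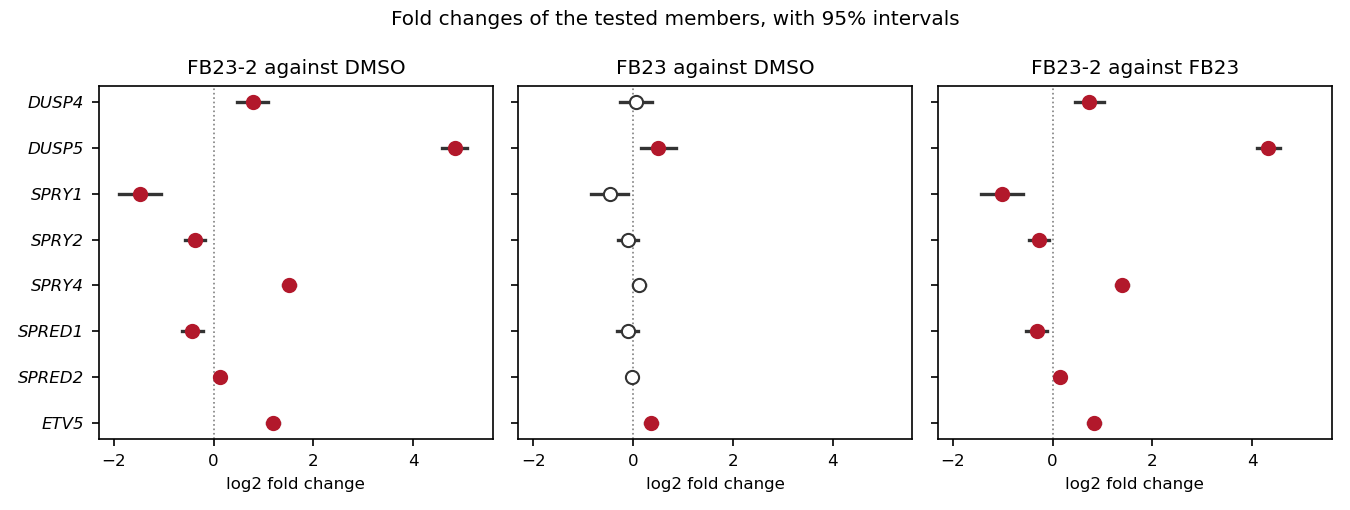
Log2 fold changes of the 8 tested genes in the 3 comparisons, with 95% intervals. Filled points have an adjusted p under 0.05 and open points do not. DUSP5 lies at 4.83 for FB23-2 against DMSO and at 0.51 for FB23 against DMSO, and SPRY1 lies left of 0 in each panel.

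Tested directly against FB23, FB23-2 had higher DUSP5, SPRY4, ETV5, DUSP4 and SPRED2 and lower SPRY1, SPRED1 and SPRY2. Both compounds were compared at 48 h, and since the doses are not given, the differences are between the treatments as applied. Over all genes 40.4% were called higher and 41.1% lower in this comparison. DUSP5 was 20.0-fold higher with FB23-2 than with FB23 (log2 fold change 4.32 ± 0.11, edgeR adjusted p = 3.76e-16). SPRY4 was 2.62-fold higher (1.39 ± 0.06, adjusted p = 1.72e-13) and ETV5 1.78-fold higher (0.84 ± 0.06, adjusted p = 1.93e-10). DUSP4 was 1.67-fold higher (0.74 ± 0.14, adjusted p = 9.90e-05). SPRY1 was at 0.498 times the FB23 level (-1.01 ± 0.20, adjusted p = 0.000169).

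The 3 smaller differences between FB23-2 and FB23 were 0.14 ± 0.05 for SPRED2 (edgeR adjusted p = 0.0108), -0.28 ± 0.09 for SPRY2 (0.0115) and -0.32 ± 0.10 for SPRED1 (0.00806). Of 20 other ways of processing, 14 kept the call of SPRY2, 15 that of SPRED1 and 19 that of SPRED2. The comparisons against DMSO share the DMSO libraries, and those with FB23-2 share its libraries, so their agreement is not independent evidence.

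The rest of the pathway was described through 7 lists of genes around ERK, with no test of a list as a whole. Each count of calls with FB23-2 against DMSO stands beside 41.3% of all tested genes called higher and 41.3% called lower. Each split on log2(TPM + 0.5) stands beside 6645 genes called higher and 4250 called lower of 13324 in that fit. A gene could pass the filter on low counts through 1 group alone, which favours a rise in that group. In the list of 18 other ERK-dependent transcripts, all of which were tested, 14 rose and 4 fell with FB23-2 against DMSO, with a median log2 fold change of 1.85, where the median over all tested genes was 0.01. EGR3, an immediate early transcription factor, rose most among them, to 3.36 ± 0.442 TPM with FB23-2 against 0.110 ± 0.0265 TPM with DMSO (mean ± SD, n = 3 each; log2 fold change 4.62 ± 0.24, edgeR adjusted p = 6.13e-12). EGR3, EGR2 (0.103 TPM with DMSO) and SPRY3 (0.06 TPM with DMSO) were near 0 with DMSO. They may have passed the filter through FB23-2 alone, which was not tested. MYC, the growth-promoting transcription factor, fell most and was also highest in DMSO, with 228 ± 8.54 TPM with FB23-2 and 683 ± 4.23 TPM with DMSO (-1.83 ± 0.05, adjusted p = 8.21e-16). ETV4, a close relative of ETV5 named here after its values were seen, fell by 0.39 ± 0.05 (adjusted p = 3.15e-06), and by TPM the fall was smaller (42.6 ± 0.860 TPM with FB23-2 and 47.1 ± 0.647 TPM with DMSO). ETV1, the other member of that subfamily and likewise chosen after its values were seen, rose by 1.30 ± 0.10 (adjusted p = 1.04e-09). SPRED3 and SPRY3, the family members outside the 10 genes, were also chosen after their values were seen and rose by 3.37 ± 0.11 (adjusted p = 7.10e-15) and 1.91 ± 0.36 (adjusted p = 0.000111), to 9.07 and 0.287 TPM with FB23-2.

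Of 8 other genes listed with the MAP kinase phosphatases, 6 rose and 2 fell with FB23-2 against DMSO (over all genes 41.3% higher and 41.3% lower), with a median log2 fold change of 0.91. The list includes STYXL1, which is not a DUSP gene by name and was among those that rose. DUSP8, which prefers the stress-activated kinases, had 16.4 ± 0.394 TPM with FB23-2 and 1.497 ± 0.356 TPM with DMSO (3.21 ± 0.11, edgeR adjusted p = 1.38e-14). DUSP9, a cytoplasmic relative of DUSP6, had 2.04 ± 0.605 TPM with FB23-2 and 7.60 ± 0.458 TPM with DMSO (-2.19 ± 0.16, adjusted p = 4.19e-10). DUSP14, the highest of them in DMSO, had 74.8 ± 3.14 TPM with FB23-2 and 31.8 ± 1.85 TPM with DMSO (0.99 ± 0.07, adjusted p = 9.25e-10). DUSP7, the other one that fell and, like DUSP6 and DUSP9, a cytoplasmic phosphatase of ERK, had 6.23 ± 0.0866 TPM with FB23-2 and 15.7 ± 0.179 TPM with DMSO (-1.58 ± 0.07, adjusted p = 3.77e-13; named after its values were seen).

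The kinases themselves changed by less, with log2 fold changes from -0.90 to 0.45. Of 11 tested genes of the ERK cascade core, from RAS to ERK, 2 rose, 5 fell and 4 were not called with FB23-2 against DMSO, with a median log2 fold change of -0.11, and on log2(TPM + 0.5) the split was 5 higher and 3 lower. MAP2K1, which encodes the kinase MEK1, rose by 0.45 ± 0.05 (edgeR adjusted p = 8.33e-08). MAP2K2, which encodes MEK2 and was highest in DMSO, had 310 ± 10.4 TPM with FB23-2 and 221 ± 29.4 TPM with DMSO (0.24 ± 0.08, adjusted p = 0.00993), a call lost without DMSO replicate 2 (0.12, adjusted p = 0.101). HRAS, a RAS GTPase, fell by 0.90 ± 0.11 (adjusted p = 7.92e-07).

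Among 23 tested genes that switch RAS on or off, 10 rose, 5 fell and 8 were not called with FB23-2 (over all genes 41.3% higher and 41.3% lower), with a median log2 fold change of 0.12. On log2(TPM + 0.5) 16 were higher and 3 lower, where 6645 of all 13324 genes in that fit were higher and 4250 lower. RASA3, which inactivates RAS, had 6.26 ± 0.558 TPM with FB23-2 and 1.19 ± 0.0889 TPM with DMSO (2.15 ± 0.12, edgeR adjusted p = 2.21e-11). PEBP1, an inhibitor of RAF and the highest of the list in DMSO, had 233 ± 8.19 TPM with FB23-2 and 471 ± 6.02 TPM with DMSO (-1.26 ± 0.05, adjusted p = 1.05e-13).

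Of 19 tested ERK effectors and regulators of ETS factors, 8 rose, 7 fell and 4 were not called with FB23-2, with a median of 0.03, and on log2(TPM + 0.5) 9 were higher and 3 lower. RPS6KA2, an ERK-activated kinase, had 51 counts over the FB23-2 libraries, 7 over the FB23 libraries and 2 over the DMSO libraries, a ratio of FB23-2 to DMSO of 23.1 with a 95% counting interval of 6.07 to 196. With so few counts elsewhere, RPS6KA2 could enter the fit only through the FB23-2 libraries. RPS6KA4, a related kinase, fell by 1.29 ± 0.09 on the log2 scale (edgeR adjusted p = 3.18e-10). MKNK2, an ERK-activated kinase of translation factor eIF4E and the highest in DMSO, rose by 1.03 ± 0.05 (adjusted p = 6.82e-12). CIC, the repressor of ETV5 and its relatives, was chosen after its values were seen and had 68.7 ± 2.19 TPM with FB23-2 and 17.6 ± 0.745 TPM with DMSO (1.71 ± 0.05, adjusted p = 7.50e-16).

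Of 12 tested receptors upstream of RAS in blood cells, 9 rose and 3 fell with FB23-2 (over all genes 41.3% higher and 41.3% lower), with a median of 1.61. IL3RA, a chain of the interleukin-3 receptor, had 106 counts over the FB23-2 libraries, 8 over the FB23 libraries and 0 over the DMSO libraries, which is at least 32.0-fold higher with FB23-2 than with DMSO at a floor of 3 counts over the DMSO group. IL3RA could enter the fit only through the FB23-2 libraries, so it could only be found higher there. MET, the receptor of hepatocyte growth factor, fell by 0.92 ± 0.12 (edgeR adjusted p = 1.37e-06). EPOR, the erythropoietin receptor and the highest in DMSO, fell by 0.38 ± 0.08 (adjusted p = 0.000198), a call lost on log2(TPM + 0.5) (-0.12, adjusted p = 0.127). Among 7 other ETS factors, 2 rose, 4 fell and 1 was not called, with a median of -0.17, and on log2(TPM + 0.5) 2 were higher and 2 lower. SPI1, a factor of myeloid and lymphoid cells, rose by 0.98 ± 0.10 (adjusted p = 8.10e-08). SPIB, its lymphoid relative, fell by 0.76 ± 0.19 (adjusted p = 0.00114). ELF1, the highest in DMSO, was called lower by 0.20 ± 0.06 (adjusted p = 0.00511), and its direction turned on log2(TPM + 0.5) (0.047, adjusted p = 0.613).

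**Figure D4:**
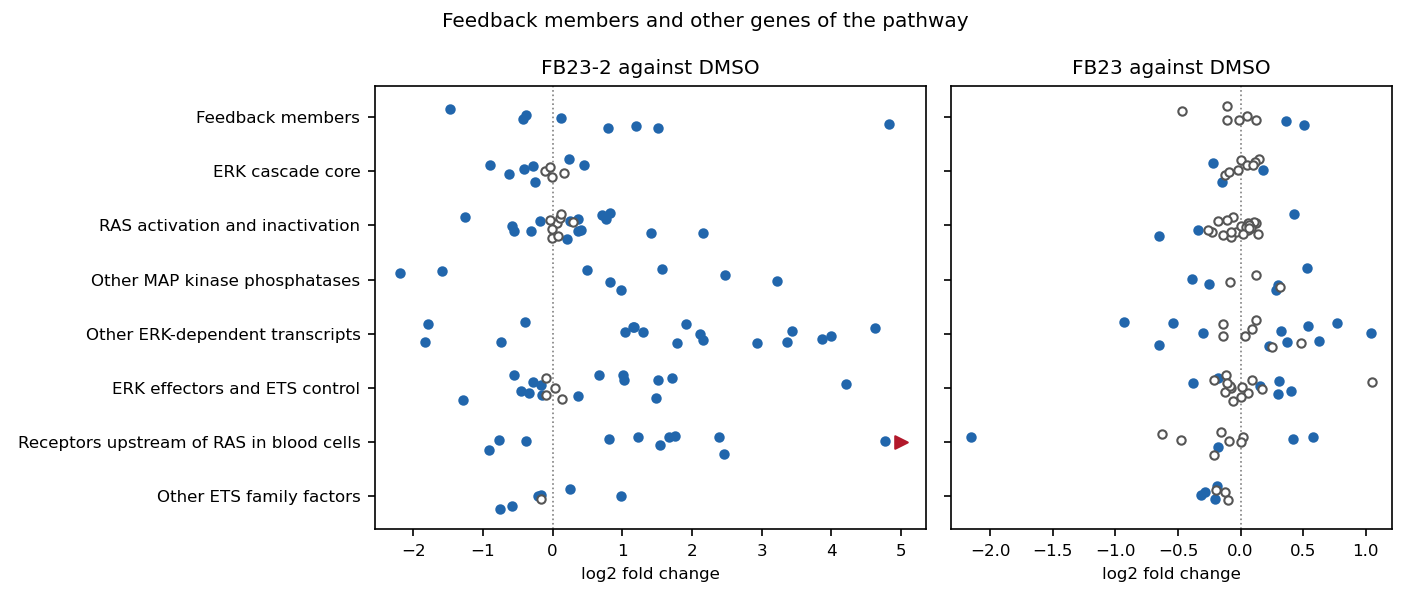
Log2 fold changes of the tested feedback genes and of 7 pathway lists for FB23-2 against DMSO and for FB23 against DMSO, 1 point per gene, with different horizontal scales. Filled points have an adjusted p under 0.05, open points do not, and the triangle is the lower bound of 4.998 for IL3RA with FB23-2. IL3RA is left out of the FB23 panel, where it was called higher (edgeR adjusted p = 0.0465) on 8 counts with FB23 and 0 with DMSO. In the list of other ERK-dependent transcripts 14 of 18 points are called right of 0 for FB23-2, some of them for genes near 0 TPM with DMSO.

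With FB23 against DMSO, 12.3% of all tested genes were called higher and 11.2% lower. Of the 18 other ERK-dependent transcripts, 7 were called higher, 4 lower and 7 not called, with a median log2 fold change of 0.17. MYC fell by 0.30 ± 0.05 with FB23 (edgeR adjusted p = 0.000276), and DUSP14 rose by 0.28 ± 0.08 (adjusted p = 0.0129), a call lost without DMSO replicate 3 or FB23 replicate 3. EGR3 (0.49 ± 0.37, adjusted p = 0.403) and DUSP8 (0.32 ± 0.13, adjusted p = 0.102) were not called. With FB23-2 against FB23, 14 of these 18 transcripts were higher and 3 lower, where 40.4% of all genes were higher and 41.1% lower.

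The genes whose profile over the 9 libraries was most like that of DUSP5, by the root-mean-square difference of centred log2 CPM among 10879 genes, were SYNPO (0.220), TUBB2B (0.228) and GSN (0.231). TUBB2B had a mean of 310 TPM with FB23-2, 17.2 TPM with FB23 and 11.6 TPM with DMSO, and GSN had 101 TPM with FB23-2, 5.16 TPM with FB23 and 3.96 TPM with DMSO. For SPRY1 the closest were CMPK2 (0.120), DEPDC1 (0.174) and COBLL1 (0.177). CMPK2 had a mean of 12.4 TPM with FB23-2, 21.5 TPM with FB23 and 30.2 TPM with DMSO. These are descriptions of likeness over libraries that share 3 treatments, and they carry no test.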

How the data were processed

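Poly(A) RNA was extracted with TRIzol and prepared with a directional kit, per the labels' protocols, from 9 libraries in 3 groups of 3. Per the file headers, the authors deposited 1 table per library with expected counts (reads per gene estimated by RSEM) and TPM (abundance per length, scaled to the library). RSEM 1.2.31 and the build GRCh38 are named in the submitters' processing notes; no source used here gives the aligner, annotation or strand setting. Each gene row holds 1 RefSeq transcript with 1 length, so isoform mix could not be described.

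Rounded expected counts were fitted with edgeR 4.0.16 (R 4.3.3), TMM factors (1.05 to 1.08 with FB23-2, 0.954 to 0.988 otherwise) and filterByExpr (minimum count 10, minimum total 15), which kept 13365 of 26830 genes. All 9 libraries entered 1 quasi-likelihood fit with no replicate block. Tests were two-sided, with Benjamini-Hochberg adjustment over all tested genes and a threshold of 0.05. Log2 fold changes are given ± SE, and the common biological coefficient of variation was 5.12%. TPM as deposited gives levels. Intervals on counts of single genes are exact (Clopper-Pearson, 95%) and cover counting error only, since reads are not known to be independent molecules.

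The 10 genes, the pathway lists, the markers and the naming rule were chosen with earlier results of these data known. The rule named all 10 genes, the most raised and the most lowered called gene of each pathway list and its highest gene by TPM in DMSO, and for DUSP5 and SPRY1 the 3 most alike genes among those averaging 1 or more on the log2 CPM scale. The fit was tested on simulated data. The alternatives were DESeq2 size factors, upper-quartile factors, library totals, no filter, 1 CPM in 3 libraries, the DESeq2 1.42.0 Wald test, limma-voom and limma on log2(TPM + 0.5) and log2(TPM + 1) (limma 3.58.1, TPM of at least 0.5 in 3 libraries), only the 6 libraries compared, a replicate block, and leaving out each library in turn.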

Additional observations from a re-analysis of the deposited data

How the results depend on the processing

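The rises of DUSP4, DUSP5, SPRY4 and ETV5 and the fall of SPRY1 with FB23-2 against DMSO kept their direction and their call in all 20 alternatives, with log2 fold changes of 0.63 to 0.96, 4.54 to 5.003, 1.46 to 1.72, 1.16 to 1.403 and -1.61 to -0.82. Scaling moved the median of all genes for FB23-2 against DMSO by 0.172 (upper-quartile factors), 0.148 (library totals) and 0.241 (log2(TPM + 0.5)), so small changes with FB23-2 are relative to that choice, and the split of called genes went to 6451 higher and 4642 lower, 6294 and 4754, and 6645 and 4250, against 5523 and 5518. With FB23 against DMSO, 2 of the 8 genes were called, and 1 under either TPM fit and with the replicate block; leaving out single libraries gave 1 to 3. Correlations of the deviations of same-numbered libraries were -0.156 to 0.0867. In 13 of 18 checks a library correlated best with its own number, a hint of pairing from the data and not from the design. The block left DUSP5 with FB23 at 0.51 (edgeR adjusted p = 0.0590). Directions that turned were all of values not called there. For FB23 against DMSO, SPRED2 was 0.0087 with library totals, 0.019 with no filter, 0.0030 on either TPM scale and -0.047 to 0.022 when single libraries were left out; DUSP4 ranged from -0.11 to 0.13 and SPRED1 from -0.18 to 0.0063 in the same way. ELF1 was 0.047 and 0.046 on the TPM scales for FB23-2 against DMSO, and EPOR 0.027 and 0.026 for FB23-2 against FB23; the cause was not tested. Depth limits DUSP6 and DUSP2, which had at most 10 counts in any library.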
